A study of Homo sapiens with 10 samples.

Results

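The dual-specificity phosphatases (DUSPs) and Sprouty-family proteins that restrain MAP kinase signalling were followed through p53 activation in BJ cells, a line of human fibroblasts immortalised with hTERT, the catalytic subunit of telomerase. The set was fixed by gene symbol and held DUSP1, DUSP4, DUSP5, DUSP6, DUSP7, DUSP10, DUSP14, SPRY2, SPRY4 and SPRED1. It was chosen with earlier results of these data known. All 10 symbols were present in both expression tables, which shared 11258 transcripts, and all 10 were among the 7015 transcripts that had at least 5 FPKM (fragment counts scaled to transcript length and library size) in at least 1 library of each assay. Cells had received nutlin-3a, which frees p53 from its inhibitor MDM2, for 2, 4, 6 or 19 h, and the control was the culture at 0 h. RNA-Seq of poly(A) RNA and Ribo-Seq, the sequencing of ribosome-protected mRNA fragments, were each done once at every time, so each of the 10 groups was 1 library and no p-value can be given.

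MAP kinase cascades pass signals from receptors through RAS, RAF and MEK to ERK, and through parallel kinases to JNK and p38. The members act as brakes on these cascades at different places: Sprouty and SPRED proteins act upstream, near the receptor and RAS, whereas DUSPs remove the phosphates from the activated MAP kinases themselves. Several of these genes are themselves switched on by MAP kinase signalling, as classical negative feedback, and DUSP1 is a well-known immediate-early gene of fibroblasts.

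Changes are given as log2 ratios to the control of the same assay, with levels below 1 FPKM set to 1, and the error beside each is a counting error from the reads behind the values. Translational efficiency (TE) is the log2 ratio of the Ribo-Seq to the RNA-Seq level, and the Ribo-Seq level is called ribosome density. The study estimated translation from reads in the coding sequence alone. The Ribo-Seq values used here were scaled to the whole transcript and may include reads outside the coding sequence. Density and TE here may therefore differ from the study's measures. A change was called when it passed 7/4 of the local standard deviation, taken over the changes of the transcripts nearest in level. The counting error says nothing of the spread between cultures. Library totals, recovered from the spacing of the values, were 23.8 to 27.6 M reads in RNA-Seq and 7.74 to 14.5 M reads in Ribo-Seq, lowest at 19 h. The nutlin-3a treatment was visible in the p53 targets, since CDKN1A RNA went from 68.6 FPKM in the control to 1316 FPKM at 19 h and MDM2 RNA from 14.9 to 259 FPKM. All 7 fibroblast markers were present, with a summed RNA level between 9106 and 12213 FPKM over the 5 libraries, whereas every epithelial, endothelial and blood cell marker in the table stayed below 1 FPKM in all of them. Because RNA was extracted from whole cultures, less RNA per cell and fewer cells with a transcript cannot be told apart. The study compared conditions with a control of their own sequencing run. Its list of samples places 1 control next to the 6 h and 19 h libraries, but the sources used here do not say whether that is the control analysed here, and they give no run for the 2 h and 4 h libraries. The sources used here do not say what the control culture received in place of nutlin-3a.

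Promoters are shown for 2 of the genes with the largest changes, DUSP1 and SPRY4, because they differ in the sites they carry. The RefSeq promoter table (GRCh38.p14) gave 11 promoters for 8 of the members, without DUSP4 and DUSP5. The 250 bases before each start were searched on both strands for the cyclic AMP response element (CRE) TGACGTCA, its shorter form TGACG, the AP-1 site TGANTCA, the TATA box TATAAA, the E-box CACGTG, the serum response element and the p53 half-site. Capitals mark every match in the sequences below, which run 5′ to 3′ on the minus strand of the genome at chr5:172771196-172771445 for DUSP1 and at chr5:142324248-142324497 for SPRY4.
DUSP1: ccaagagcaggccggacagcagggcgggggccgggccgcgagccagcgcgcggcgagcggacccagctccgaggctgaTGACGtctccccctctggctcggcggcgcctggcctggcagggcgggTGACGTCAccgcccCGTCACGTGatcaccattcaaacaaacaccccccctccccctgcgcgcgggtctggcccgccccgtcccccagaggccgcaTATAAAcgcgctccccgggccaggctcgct
SPRY4: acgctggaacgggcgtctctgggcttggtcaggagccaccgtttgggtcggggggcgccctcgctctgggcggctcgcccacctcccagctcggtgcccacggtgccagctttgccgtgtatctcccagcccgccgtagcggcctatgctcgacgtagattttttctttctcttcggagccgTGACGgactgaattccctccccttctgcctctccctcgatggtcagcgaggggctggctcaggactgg

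The DUSP1 promoter held a full CRE at positions -125 to -118 from the start, and it was the only member promoter that did, against 1.65% of all 35116 promoters in the table. TGACG matched 4 times in DUSP1, 2 of them overlapping within the CRE and 1 overlapping the E-box, and once in SPRY4 at positions -68 to -64. It also matched in SPRY2, and 21.2% of all promoters held it. DUSP1 was also the only member promoter with a TATA box, at positions -30 to -25, and with an E-box, motifs that 10.7% and 6.34% of all promoters held. No member promoter had an AP-1 site, which 6.57% of promoters held, or a serum response element, held by 1.16%. A p53 half-site was matched in DUSP7 alone among the members and in 5.57% of all promoters. These matches describe letters in a short window and say nothing of binding.

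**Figure D1:**
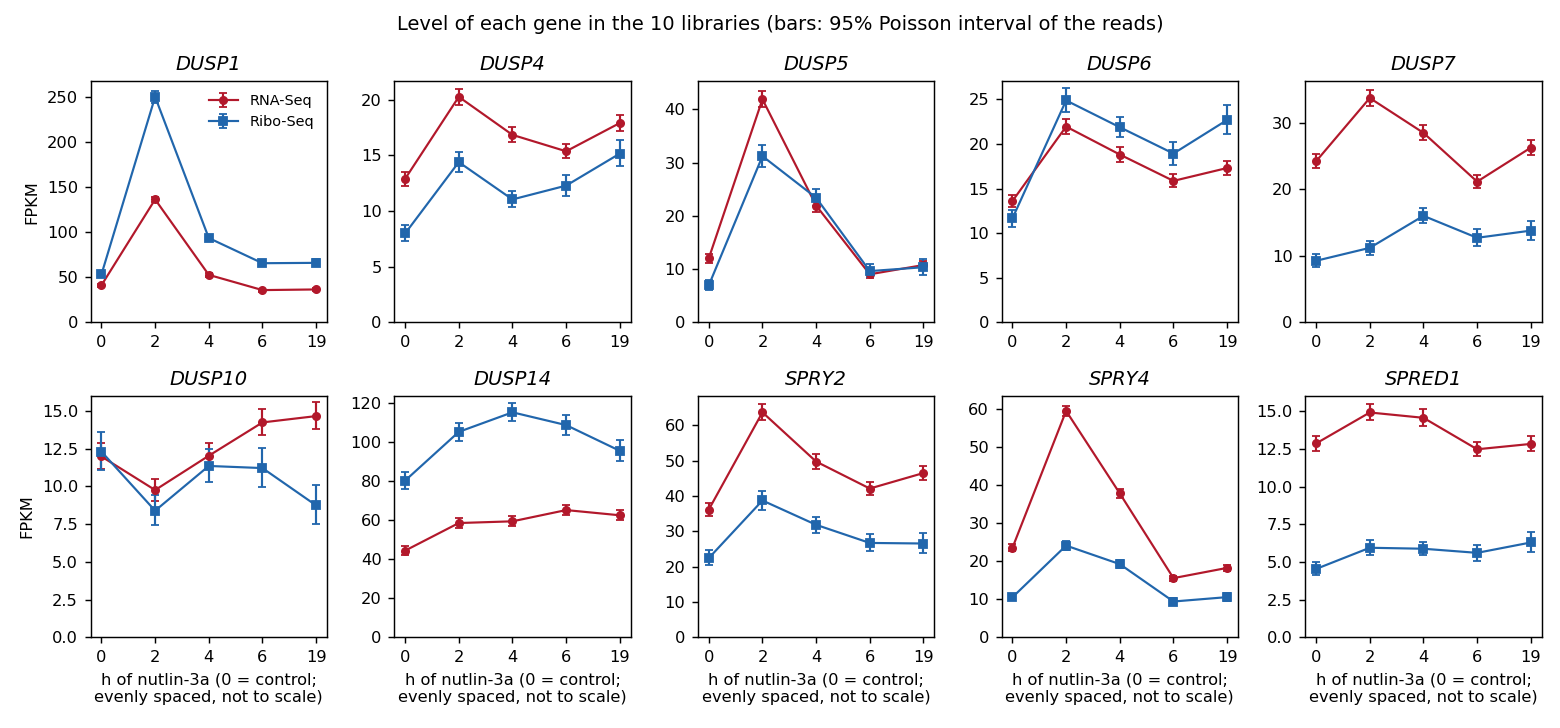
Level of each member in FPKM (vertical axes, from 0, scaled per gene) against hours of nutlin-3a (evenly spaced, 0 is the control), with RNA-Seq in red circles and Ribo-Seq in blue squares and bars for the 95% Poisson interval of the reads. DUSP1, DUSP5 and SPRY4 show a tall point at 2 h in both assays, whereas DUSP10 is at its lowest there and DUSP14 stays up to 19 h.

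DUSP1 (ENSG00000120129), DUSP4 and DUSP5 encode the nuclear phosphatases of the set. DUSP1 acts on all the main MAP kinases, p38 and JNK included, and its RNA level was 41.1 FPKM in the control and 136, 52.6, 35.8 and 36.5 FPKM at 2, 4, 6 and 19 h. Ribosome density of DUSP1 was 53.1 FPKM in the control and 249.8, 93.4, 65.5 and 65.9 FPKM at 2, 4, 6 and 19 h. Both assays were thus highest at 2 h, where the RNA level had moved from percentile 75.4 to percentile 94.3 of the tested transcripts. Density at 4 h was also called higher than the control. The 2 h value was 3.31-fold the control in RNA (log2 change 1.73, SE 0.036, 7410 against 1981 reads) and 4.70-fold in density (2.23, SE 0.045). At 6 and 19 h the RNA was 0.869-fold and 0.887-fold the control, both below it beyond counting error, and these levels did not differ from each other beyond that error.

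DUSP5 (ENSG00000138166) encodes a nuclear phosphatase specific to ERK. Its RNA level was 12.02 FPKM in the control and 41.9, 21.9, 9.03 and 10.8 FPKM in the treated libraries in order of time. Its ribosome density was 6.95 FPKM in the control and 31.2, 23.4, 9.63 and 10.4 FPKM in the same order. The 2 h library was again the highest in both assays, but DUSP5 came down later than DUSP1, above all in Ribo-Seq. From 2 to 4 h its density changed by -0.42 on the log2 scale (SE 0.068), and that of DUSP1 by -1.42 (SE 0.033). From 4 to 6 h RNA and density of DUSP5 both changed by -1.28 (SE 0.069 and 0.10). The 2 h rise was 3.48-fold in RNA (log2 change 1.80, SE 0.060), which only 18 of the 7015 tested transcripts exceeded, and 4.49-fold in density (2.17, SE 0.11), which rests on 209 reads in the control.

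DUSP4 (ENSG00000120875) is a nuclear phosphatase of ERK, JNK and p38, and its course was flatter. RNA was 12.9 FPKM in the control and 20.3, 16.8, 15.4 and 17.9 FPKM at 2, 4, 6 and 19 h, so every treated library lay above the control. Density was 7.98 FPKM in the control and 14.4, 11.04, 12.3 and 15.2 FPKM at 2, 4, 6 and 19 h. The density had no single peak, since the 19 h and 2 h levels differed by less than their counting error and both lay above 4 and 6 h. Relative to the control, RNA was 1.57-fold at 2 h (log2 change 0.65, SE 0.044) and 1.39-fold at 19 h (0.47, SE 0.045), and density was 1.80-fold at 2 h (0.85, SE 0.079) and 1.90-fold at 19 h (0.92, SE 0.085).

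DUSP6 and DUSP7 encode the cytoplasmic phosphatases of ERK. DUSP6 (ENSG00000139318), a standard readout of ERK activity, had an RNA level of 13.6 FPKM in the control and of 21.9, 18.8, 15.9 and 17.3 FPKM at 2, 4, 6 and 19 h. Its density was 11.7 FPKM in the control and 24.9, 21.9, 18.9 and 22.7 FPKM after treatment, in the same order. All treated libraries of both assays were above the control, and the lowest of them was the one at 6 h. RNA rose 1.61-fold at 2 h (log2 change 0.69, SE 0.048) and density 2.13-fold (1.09, SE 0.071). At 19 h density was still 1.95-fold the control (0.96, SE 0.079) and RNA 1.27-fold (0.35, SE 0.050), and neither was called there.

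The 2 assays parted for DUSP7 (ENSG00000164086). RNA was highest at 2 h, with 24.2 FPKM in the control and 33.7, 28.5, 21.2 and 26.3 FPKM at 2, 4, 6 and 19 h. Ribosome density was highest at 4 h, with 9.27 FPKM in the control and 11.2, 16.03, 12.7 and 13.8 FPKM at the treated times. From 2 to 4 h RNA of DUSP7 changed by -0.24 on the log2 scale (SE 0.040) and density by 0.52 (SE 0.086). Its TE level in the control, -1.39 on the log2 scale, was in the lowest 9.21% of tested transcripts.

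DUSP10 and DUSP14 did not share the early peak. DUSP10 (ENSG00000143507), a phosphatase of JNK and p38, had its lowest RNA level at 2 h, with 11.97 FPKM in the control and 9.75, 12.02, 14.2 and 14.6 FPKM at 2, 4, 6 and 19 h. Its density was 12.3 FPKM in the control and 8.38, 11.3, 11.2 and 8.73 FPKM at those times. RNA and density parted late: at 19 h RNA was the highest of its series and density was close to its lowest, with the 19 h and 2 h densities within counting error of each other. At 2 h the log2 change was -0.30 in RNA (SE 0.075) and -0.55 in density (SE 0.11), and neither was called. At 19 h it was 0.29 in RNA (SE 0.069) and -0.49 in density (SE 0.13), and neither was called there.

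DUSP14 (ENSG00000161326) is a small atypical phosphatase without the docking domain by which the classical family holds MAP kinases. RNA of DUSP14 was 44.3 FPKM in the control and 58.5, 59.3, 65.1 and 62.4 FPKM at 2, 4, 6 and 19 h. Ribosome density was 80.2 FPKM in the control and 105, 115, 109 and 95.4 FPKM at the same times. It was the highest member in both assays in the control, and neighbours in the order of the treated RNA levels did not differ beyond counting error. The 4 h and 6 h levels, which are not neighbours in that order, did differ, with a log2 change of 0.13 (SE 0.041). At 2 h RNA of DUSP14 changed by 0.40 (SE 0.046), just under its cut-off of 0.45.

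SPRY2 and SPRY4 encode Sprouty proteins, which act between receptor tyrosine kinases and ERK. SPRY4 (ENSG00000187678) had an RNA level of 23.5 FPKM in the control and of 59.4, 37.7, 15.5 and 18.2 FPKM at 2, 4, 6 and 19 h. Its density was 10.5 FPKM in the control and 24.1, 19.2, 9.39 and 10.5 FPKM after treatment. The RNA thus crossed the control level between 4 and 6 h. It was 2.53-fold the control at 2 h (log2 change 1.34, SE 0.032) and 0.661-fold at 6 h (-0.60, SE 0.042), the lowest RNA change of any member, although the latter was not called. Density of SPRY4 at 6 and 19 h did not differ from the control beyond counting error.

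SPRY2 (ENSG00000136158) rose less and stayed above the control. RNA was 36.1 FPKM in the control and 63.6, 49.7, 42.1 and 46.5 FPKM at 2, 4, 6 and 19 h. Density was 22.4 FPKM in the control and 38.7, 31.8, 26.7 and 26.5 FPKM at the same times. The 2 h change was 0.82 in RNA (SE 0.046) and 0.79 in density (SE 0.086) on the log2 scale. SPRED1 (ENSG00000166068), which brings the RAS-inactivating protein neurofibromin to the membrane, had the smallest RNA change at 2 h, with levels between 12.5 FPKM at 6 h and 14.9 at 2 h in RNA and densities between 4.54 FPKM in the control and 6.29 at 19 h. That change was 0.21 on the log2 scale (SE 0.039), and the 2 h and 4 h levels did not differ beyond counting error.

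At 2 h RNA of 7 of the 10 members was called, all higher: DUSP1, DUSP4, DUSP5, DUSP6, DUSP7, SPRY2 and SPRY4. Of all 7015 tested transcripts 4.11% were called in either direction and 3.36% higher. The members were chosen with earlier results of these data known, so the count is described and not tested. The median log2 change of the members was 0.67, between -0.30 for DUSP10 and 1.80 for DUSP5, while the median of all tested transcripts was -0.05 and 90% of them lay between -0.24 and 0.30. A plain 2-fold cut-off, which 0.941% of tested transcripts passed, kept DUSP1, DUSP5 and SPRY4. With the 19 h library in place of the control the same 3 genes were called, of 6.74% in all. DUSP4, DUSP6, DUSP7 and SPRY2 were thus called against the control and not against that library. Their changes against it were 0.18, 0.34, 0.36 and 0.45. The cut-off is set anew for each comparison. Those of DUSP7 and SPRY2 against the control, 0.34 and 0.40, lay below these changes, so the loss of a call also reflects a wider cut-off.

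Ribosome density at 2 h was called higher for 6 members, the same genes as in RNA except DUSP7, against 6.29% of tested transcripts in either direction and 4.82% higher. The median change of the members was 0.82 and that of all tested transcripts 0.02. DUSP1, DUSP5, DUSP6 and SPRY4 passed 2-fold, as did 2.25% of tested transcripts. Against the 19 h library DUSP1 and DUSP5 were called, with 7.61% of all, and SPRY4 was not called there with a change of 1.19, beside 1.196 against the control. Transcripts of the members ran from 1559 nt for DUSP14 to 7780 nt for SPRED1. With the trend of density changes over transcript length removed the same 6 members were called, with 6.13% of tested transcripts, and the change of SPRED1 went from 0.39 to 0.15.

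**Figure D2:**
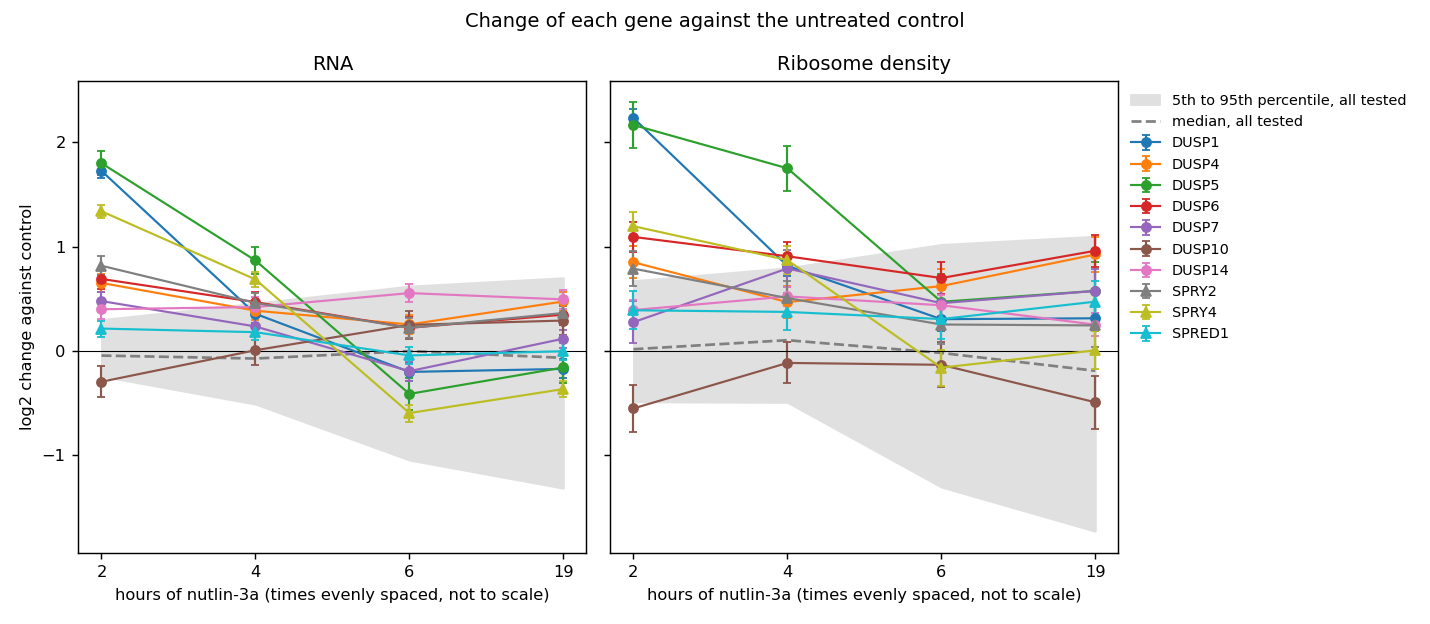
Log2 change of each member against the control (vertical axis, shared) at 2, 4, 6 and 19 h of nutlin-3a (evenly spaced, not to scale) in RNA (left) and ribosome density (right), with bars for the 95% counting interval, circles for DUSPs and triangles for Sprouty-family genes. The grey band holds the central 90% of all tested transcripts and is wider at 6 and 19 h than at 2 h. In RNA 9 of 10 members are above the median of all tested at 2 h, and none is called at 6 or 19 h.

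At 4 h RNA was called for DUSP5 (log2 change 0.87, SE 0.066) and SPRY4 (0.69, SE 0.035), both higher, against 6.39% of tested transcripts. Neither reached 2-fold, which 2.1% of tested transcripts did. The same 2 genes were called against the 19 h library, with 6.54% of all. The members' median was 0.40 and that of all tested transcripts -0.07. Density was called higher for DUSP5 (1.751, SE 0.11), DUSP6 (0.91, SE 0.071), SPRY4 (0.87, SE 0.070) and DUSP1 (0.82, SE 0.049), against 7.48% of tested transcripts. DUSP5 alone reached 2-fold, a size that 3.11% of tested transcripts had, and against the 19 h library no member was called, though 8.5% of tested transcripts were. Against that library the 4 h density change was 1.18 for DUSP5, and for SPRY4 it was 0.87, as large as against the control. All density changes at 4 h carry a shift of the whole library, whose median change over tested transcripts was 0.10, beside a members' median of 0.66.

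The decline after 2 h is best read against the 2 h libraries themselves. From 2 to 4 h RNA of DUSP1, DUSP5 and SPRY4 was called lower, with 7% of tested transcripts called in either direction. DUSP1 RNA fell by 1.37 (SE 0.033), DUSP5 RNA by 0.93 (SE 0.047) and SPRY4 RNA by 0.65 (SE 0.027) on the log2 scale. In density DUSP1 alone was called lower from 2 to 4 h, with 7.71% of tested transcripts. At 6 h the same 3 genes were called lower than at 2 h in RNA, where 6.91% of tested transcripts were called, and in density, where 7.01% were. RNA of 5 others was also lower at 6 h than at 2 h without being called, with log2 changes of -0.67 for DUSP7, -0.60 for SPRY2, -0.47 for DUSP6, -0.40 for DUSP4 and -0.26 for SPRED1. From 6 to 19 h RNA changed by 0.31 (SE 0.044) for DUSP7, 0.22 (SE 0.041) for DUSP4, 0.14 (SE 0.046) for SPRY2 and 0.13 (SE 0.046) for DUSP6, and that of SPRED1 by 0.04 (SE 0.040).

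Against the control no member was called at 6 h or 19 h in either assay. The shares of tested transcripts called were 6.4% and 6.71% in RNA and 7.31% and 7.28% in density. No member was past 2-fold either, whereas 7.14% of tested transcripts were in RNA at 6 h and 9.59% at 19 h, and in density 13.3% and 21.1% were. The cut-offs were wider at these times, and for density of DUSP4 the cut-off was 0.66 at 2 h and 1.44 at 19 h, and for DUSP6 0.55 and 1.499. The density changes of these genes at 19 h, 0.92 and 0.96, were thus not called although those at 2 h, 0.85 and 1.09, were. The members' median in RNA was 0.09 at 6 h and 0.20 at 19 h, beside -0.00 and -0.07 for all tested transcripts. In density it was 0.37 and 0.39, beside -0.02 and -0.19. The Ribo-Seq level was lowest in the control library for 8 of the 10 members, all but DUSP10 and SPRY4, and these orders all rest on the same control library. The share of all tested transcripts that were lowest there was not worked out, so this count is not read as a trait of the members.

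**Figure D3:**
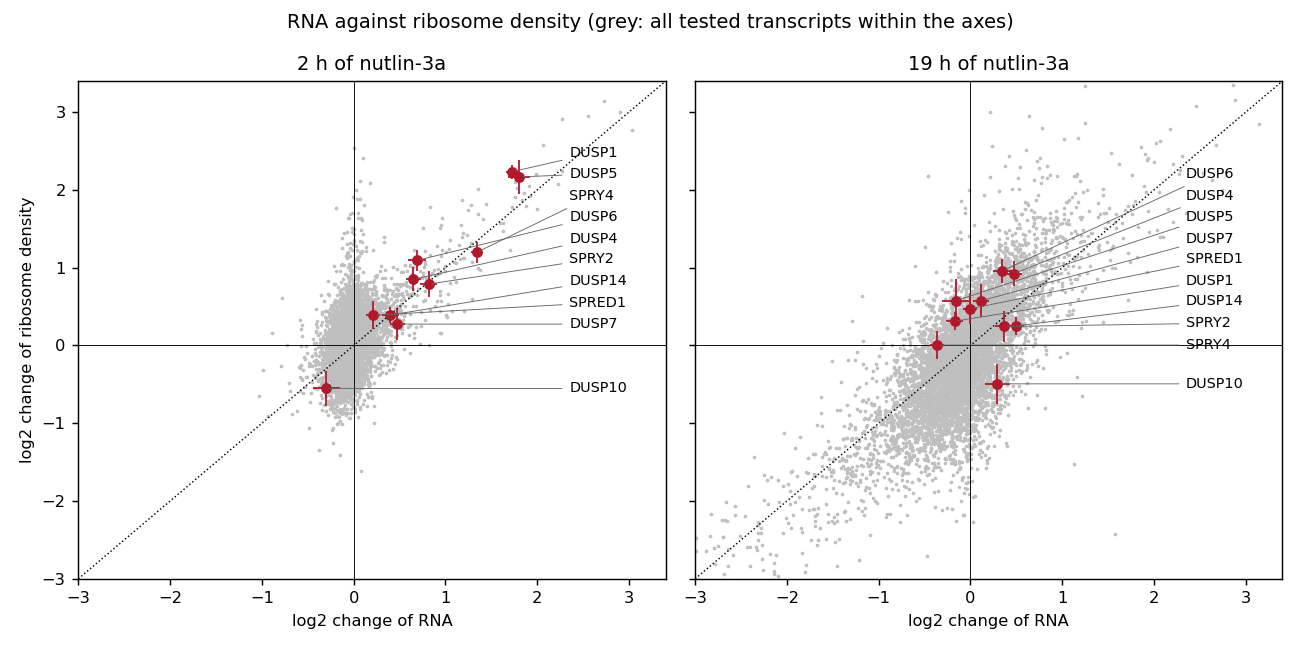
Log2 change of RNA (horizontal axis) against log2 change of ribosome density (vertical axis) at 2 h (left) and 19 h (right), with members in red with 95% counting intervals, all tested transcripts within the axes in grey and the line of equal change dotted. At 2 h DUSP1 and DUSP5 lie far up the line with changes of 1.73 and 1.80 in RNA, and at 19 h the members lie within the grey cloud, with DUSP10 at 0.29 in RNA and -0.49 in density.

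Whether the mRNAs were translated more or less per copy was followed by TE. At 2 h no member was called in TE, while 7.36% of tested transcripts were, and no member was past 2-fold, which 1.2% were. DUSP1 had the largest TE change at that time, 0.51 (SE 0.058), under its cut-off of 0.56. With the length trend removed it was 0.54 and called, 1 member of 10 where 8.22% of tested transcripts were. For 6 members, DUSP7, DUSP10, DUSP14, SPRY2, SPRY4 and SPRED1, the 95% counting interval of the TE change at 2 h held 0, and the values nearest to 0 were -0.01 (SE 0.068) for DUSP14 and -0.03 (SE 0.098) for SPRY2.

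At 4 h TE of DUSP5 (0.88, SE 0.13) and DUSP7 (0.56, SE 0.10) was called higher, against 12.9% of tested transcripts. The median TE of all tested transcripts was itself 0.18 higher than in the control. Relative to that median DUSP5 stood at 0.71 and stayed called, with 7.78% of tested transcripts, whereas DUSP7 at 0.38 was not. Against the 19 h libraries neither was called at 4 h, with 12% of tested transcripts called. Neither reached 2-fold in TE, as did 0.998% of tested transcripts. At 6 and 19 h no member was called in TE, where 7.13% and 7.94% of tested transcripts were.

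TE values at the 4 times share the control libraries and are therefore set side by side only. DUSP1 had TE changes of 0.51, 0.46, 0.51 and 0.49 at 2, 4, 6 and 19 h, so its treated libraries were nearly level with each other. Taken against the 19 h libraries, its TE at 2 h differed by 0.02. DUSP5 had TE changes of 0.37, 0.88, 0.88 and 0.73, with SEs from 0.13 to 0.16, and DUSP6 had 0.40, 0.44, 0.48 and 0.61, with SEs from 0.086 to 0.093. DUSP7 went from -0.20 (SE 0.11) at 2 h to 0.56, 0.65 and 0.46 later, and it was the 1 member called in TE against the 2 h libraries, higher at each of 4, 6 and 19 h, where 9.52%, 8.15% and 9.34% of tested transcripts were called. A count of 1 member of 10 lies near those shares, and all of these comparisons share the same 2 h libraries.

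DUSP10 was the member with the lowest TE change at 19 h, -0.78 (SE 0.15, 181 Ribo-Seq reads), which 6405 of the 7015 tested transcripts exceeded. This was just inside its cut-off of 0.82, and with the length trend removed it was -0.79 and called, again 1 of 10 where 8.13% of tested transcripts were. The median TE change of the members was 0.40 at 6 h and 0.45 at 19 h, beside 0.00 and -0.07 for all tested transcripts, and 0.24 and 0.26 with the length trend removed. Levels of TE between genes depend on how much of each transcript is coding, because the Ribo-Seq values of the members were scaled to the same transcript length as the RNA-Seq values.

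**Figure D4:**
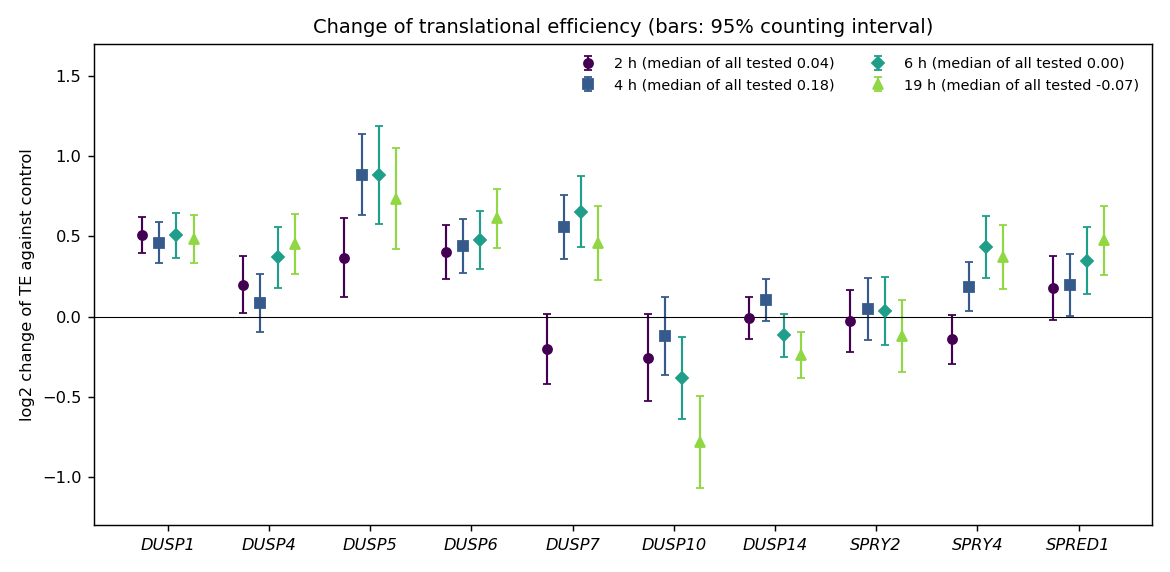
Log2 change of TE against the control (vertical axis) for each member (horizontal axis) at 2 h (circles), 4 h (squares), 6 h (diamonds) and 19 h (triangles), with bars for the 95% counting interval. DUSP7 goes from -0.20 at 2 h to 0.65 at 6 h, DUSP10 reaches -0.78 at 19 h, and the 4 points of DUSP1 lie between 0.46 and 0.51.

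The rest of the pathway was followed in gene lists drawn up from general knowledge. Like the members, these lists were chosen with earlier results of these data known, so their counts are described only. Of 6 tested genes among the other DUSPs 1 was called in RNA at 2 h and none later. It passed the filter of 5 FPKM through the 2 h libraries alone, so it was tested only because it was high there, and without it none of 5 was called. That gene was DUSP2, a nuclear phosphatase induced by mitogens, which went from 1.37 FPKM in the control to 10.3 at 2 h and was back at 1.92 FPKM at 4 h (log2 change 2.91 at 2 h, SE 0.21). Of 7 tested genes among the other Sprouty-type and RAS brakes 1 was called, ERRFI1, which encodes a feedback inhibitor of the EGF receptor. ERRFI1 RNA was 35.0 FPKM in the control and 113.9, 78.0, 21.7 and 23.3 FPKM at 2, 4, 6 and 19 h, and the first 2 of these were called higher. The list medians in RNA at 2 h were -0.02 and 0.08, and the shares of tested transcripts called in RNA were 4.11% at 2 h and 6.39% at 4 h.

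The cascades themselves were followed in the same way. The ERK cascade list ran from receptors to ERK1 and ERK2 and a kinase below them. Of its 20 tested genes none was called in RNA at 2, 6 or 19 h and 1 at 4 h, EGFR, with a log2 change of 0.69. The shares over all tested transcripts given above were 4.11% to 6.71%. The median of the 20 genes in RNA was 0.01 at 2 h. Of 10 tested genes of the JNK and p38 cascades none was called in RNA at any time, with a median of 0.02 at 2 h. These lists are short, and counts this small lie near those shares. In density 2 genes of the ERK cascade were called higher at 2 h and 2 of the JNK and p38 list at 4 h, where 6.29% and 7.48% of tested transcripts were called. In TE 2 genes of the ERK cascade were called higher and 1 lower at 2 h, and the same numbers at 6 h. The higher genes were the same at both times and the lower gene was not. None of that list was called in TE at 4 h and 1 was called lower at 19 h. Of the 10 JNK and p38 genes 3 were called higher in TE at 4 h, where 12.9% of tested transcripts were called.

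Transcripts known to respond to ERK signalling were another list, also chosen with earlier results of these data known, and 11 of them were tested. In RNA the calls at 2 and 4 h were 6 and 3, all higher, and those at 6 and 19 h were 2 and 1, all lower. In density 7 and 5 were called higher at 2 and 4 h, and none was called at 6 or 19 h. The shares of tested transcripts called in RNA were 4.11%, 6.39%, 6.4% and 6.71% at 2, 4, 6 and 19 h. In density they were 6.29%, 7.48%, 7.31% and 7.28%. EGR3, an immediate-early transcription factor, was at 1.28 FPKM in the control, 27.2 at 2 h and 2.91 at 4 h in RNA, and like DUSP2 it was tested only because its 2 h libraries passed 5 FPKM. Without EGR3 the calls among 10 genes were 5 and 2 in RNA at 2 and 4 h and 6 and 5 in density, and the list median in RNA at 2 h went from 0.70 to 0.47. EGR1, another of these factors, was at 47.8 FPKM in the control, 122 at 2 h and 67.0 at 4 h. HBEGF, a ligand of the EGF receptor, went from 6.50 to 22.0 FPKM at 2 h and was at 2.93 FPKM at 19 h. FOSL1, an AP-1 subunit, went from 217 to 382 FPKM at 2 h and was at 84.1 FPKM at 6 h, called higher and then lower. Their part in the changes of the members was not tested.

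The transcripts most like DUSP1, DUSP5 and SPRY4, the members past 2-fold in RNA, were found by the root mean square (RMS) difference over 8 log2 changes, RNA and density at the 4 times, among the tested transcripts that are not members. CSRNP1, a nuclear protein gene, was nearest to DUSP1, at an RMS difference of 0.20, with RNA levels of 14.7, 50.1, 16.8, 13.1 and 15.5 FPKM at 0, 2, 4, 6 and 19 h. SNAI1, a transcription factor, and SOCS3, an inhibitor of cytokine signalling, followed at 0.33 and 0.35, and DUSP5 was the nearest member, at 0.40. SNAI1 reached 5 FPKM only in the 2 h libraries, with 7.97 FPKM in RNA and 8.40 FPKM in density. It was thus tested only because it was high there. MAFF, a small basic leucine zipper factor, was nearest to SPRY4, at 0.20, with RNA levels of 15.3, 34.1, 21.5, 10.4 and 13.7 FPKM, and NEDD9 and SOCS3 followed at 0.25 and 0.27. DUSP5 was closer to DUSP1, at that 0.40, than to any transcript outside the set, of which PTGS2, ZC3H12A and FOXC2 were nearest at 0.44, 0.45 and 0.48. ZC3H12A passed the filter in RNA through the 2 h library alone, with 10.96 FPKM there. RNA of PTGS2, which encodes cyclooxygenase-2, was still high at 4 h, with 29.2, 79.6, 75.8, 32.5 and 42.9 FPKM at the 5 times. All 8 changes share the 2 control libraries, so likeness of shape is described here and not tested.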

How the data were processed

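The authors aligned reads with Bowtie (hg19, per the labels) to single-isoform protein-coding transcripts of Ensembl release 65 and deposited FPKM values, 5 columns for RNA-Seq and 5 for Ribo-Seq. The assay of each table was taken from its name. Reads, library totals and transcript lengths were worked out from the steps between FPKM values (length for 99.7% of tested transcripts) and tested on simulated data. The 95% intervals of FPKM levels are exact Poisson intervals. Those of log2 changes and of TE are normal approximations from the read counts, and all cover counting error only. Samples were grouped by the assay and time in their labels, 1 library per group, so no test was run. Log2 ratios of values floored at 1 FPKM were called past the study's sliding cut-off, 7/4 of the local SD over the nearest transcripts in level (250 on either side), among the 7015 transcripts with at least 5 FPKM in both assays. Alternatives were a pseudocount of 1 FPKM, a floor of 5 FPKM, no filter, centring, a 2-fold cut-off, removal of the length trend, the 2 h library as baseline and, chosen after seeing the data, the 19 h library. The text names all members, CDKN1A and MDM2, from each list up to 4 genes with the largest RNA change past both cut-offs, and the 3 transcripts outside the set most like each member past 2-fold in RNA. EGFR was named after its value was seen. The members and lists were chosen with earlier results of these data known. Python 3.11.15, numpy 2.4.6, pandas 2.3.3 and scipy 1.17.1 were used.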

Additional observations from a re-analysis of the deposited data

How the results depend on the processing

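Of 90 recomputed counts of called members, 70 were within 1.5 times the reported count by number alone, among them all with a pseudocount, a floor of 5 FPKM or no filter, and 689 of 780 recomputed changes of single members kept their sign. With the 2-fold cut-off 3 members were called in RNA at 2 h, 0 in RNA at 4 h, 1 in density at 4 h and 0 in TE at 4 h. The shares of tested transcripts past it were 0.941%, 2.1%, 3.11% and 0.998% in that order. With median centring 1 member was called in TE at 4 h, where 7.78% of tested transcripts were. With the length trend removed 1 was called in TE at 2 h (DUSP1) and 1 in TE at 19 h (DUSP10, lower), where 8.22% and 8.13% of tested transcripts were. With the 19 h baseline 3 were called in RNA, 2 in density and 1 in TE (DUSP7, lower) at 2 h, and 0 in density and 0 in TE at 4 h. The shares of tested transcripts called were 6.74%, 7.61% and 9.34% at 2 h, and 8.5% and 12% at 4 h. Under the 19 h baseline the density change of DUSP4 at 2 h turned to -0.075 and that of DUSP6 at 4 h to -0.053. With the 2 h baseline 3 were called in RNA (DUSP1, DUSP5 and SPRY4, all lower, in place of 2 higher), 1 in density (lower) and 1 in TE at 4 h, 3 in RNA and 3 in density (lower) and 1 in TE at 6 h, and 3 in RNA and 2 in density (lower) and 1 in TE at 19 h. The shares of tested transcripts called in RNA, density and TE were 7%, 7.71% and 9.52% at 4 h. At 6 h they were 6.91%, 7.01% and 8.15%, and at 19 h 6.74%, 7.61% and 9.34%. Each single call in TE lies near its share. Under the 2 h baseline the 4 h changes turned to -0.93 for DUSP5 and -0.65 for SPRY4 in RNA, and to -1.42 for DUSP1, -0.42 for DUSP5, -0.19 for DUSP6 and -0.33 for SPRY4 in density. These changes of sign follow from the baseline, since levels were highest at 2 h. The cause of the other differences was not tested. No paired analysis was possible because each group holds 1 library. The 19 h Ribo-Seq library, with 7.74 M reads, limits density and TE of the members with few reads, such as DUSP10.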
